A study of Mus musculus with 9 samples.

Results

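The interferon response genes were 35 mouse genes that act in, or are induced by, interferon signalling. They comprised the 2 chains of the type I interferon receptor, 4 interferon regulatory factors, 3 sensors of foreign nucleic acid, 17 antiviral effectors, 6 genes of protein modification and 3 other responders. Open chromatin at these genes was mapped by ATAC-seq: the transposase Tn5 inserts sequencing adapters into open DNA and the authors called peaks where insertions piled up. Peaks of all 9 lists were merged wherever they shared at least 1 base, and a merged region was taken as a region of a member when it overlapped the gene body or lay within 100 kb of a member's end with no nearer end of a protein-coding gene. This gave 148 of 62963 regions, 82 of them in a member's body and 66 outside, the farthest 53.16 kb away. Another 6 regions, at least 170.6 kb from Samd9l, had its end as their nearest but lay beyond the limit. Parp9 and Dtx3l shared 2 regions.

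All libraries were made from the same kind of cell. P14 CD8 T cells recognise, through a transgenic receptor, an epitope of a viral glycoprotein (LCMV, the lymphocytic choriomeningitis virus), and here came from TCF-1-GFP reporter mice, were naive, and were transferred into C57BL/6 hosts 8 days after engraftment of B16.F10 melanoma cells that express this glycoprotein. The groups were donor cells (CD45.1+CD44+CD8 T cells, labelled WT) taken from tumor-draining lymph nodes 4, 8 or 21 days after transfer, with 3 libraries of 50000 cells each per day. The series has no group without a tumor, without transfer or with interferon added or blocked, and time after transfer was the only difference between the groups that the labels give. Time since tumor engraftment ran along with it, so both cannot be told apart. Hosts keep their own lymphocytes, and the sort was the means of separating the donor cells from them.

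Type I interferons bind a receptor made of IFNAR1 and IFNAR2, which signals through the kinases JAK1 and TYK2. IRF9 is part of the complex that then binds the interferon-stimulated response element (ISRE) in the promoters of target genes, and the gamma-activated site (GAS) is another element of such promoters. In CD8 T cells type I interferon acts beside antigen and costimulation and supports their expansion and killing function, and many of its targets, such as the OAS, IFIT and GBP families, block viral replication.

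RefSeq promoter windows on GRCm38.p6, from 250 bases before to 50 after a transcription start, were matched for 25 of the 35 genes. The ISRE core was searched as GAAANNGAAA on both strands (TTTCNNTTTC in reverse) and GAS as TTCNNNGAA, which reads the same on both strands. An ISRE core was in the windows of 11 of the 25 genes (44%), against 3.98% of 17274 protein-coding genes, and GAS in 8 (32%), against 9.02%. The AP-1 motif TGANTCA, bound by the Jun and Fos factors of activated T cells, was in 6 (24%), against 8.19%. The 2 searches can overlap each other, as they do in the Bst2 window, and a match is not a bound site. The 5 windows printed here are those the promoter results turn on: Isg15 and Oas1a were the members without a promoter peak on day 4 and with one in every later list, Bst2 rose in rank, Ifit1 was called in every list, and Irf1 fell in rank. Matches to the ISRE core or GAS are in capitals, and each line runs 5′ to 3′ on the gene's strand.
Isg15 (chr4:156200769-156201068, minus strand): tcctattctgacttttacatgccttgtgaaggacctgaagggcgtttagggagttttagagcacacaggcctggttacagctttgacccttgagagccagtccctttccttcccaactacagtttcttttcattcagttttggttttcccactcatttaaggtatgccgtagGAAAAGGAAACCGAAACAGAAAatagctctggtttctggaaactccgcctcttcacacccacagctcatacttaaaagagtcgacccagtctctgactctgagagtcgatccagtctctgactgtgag
Oas1a (chr5:120907476-120907775, minus strand): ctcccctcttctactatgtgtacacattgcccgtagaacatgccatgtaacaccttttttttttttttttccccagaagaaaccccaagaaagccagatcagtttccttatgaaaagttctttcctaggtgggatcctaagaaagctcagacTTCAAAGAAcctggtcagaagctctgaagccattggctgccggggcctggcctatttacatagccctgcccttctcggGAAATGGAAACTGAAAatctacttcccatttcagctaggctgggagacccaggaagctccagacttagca
Bst2 (chr8:71537423-71537722, minus strand): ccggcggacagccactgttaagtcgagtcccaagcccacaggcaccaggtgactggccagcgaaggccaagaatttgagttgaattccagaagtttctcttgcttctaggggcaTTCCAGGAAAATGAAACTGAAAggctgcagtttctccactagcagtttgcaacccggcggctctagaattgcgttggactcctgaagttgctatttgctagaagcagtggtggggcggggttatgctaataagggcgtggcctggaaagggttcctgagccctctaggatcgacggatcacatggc
Ifit1 (chr19:34640639-34640938, plus strand): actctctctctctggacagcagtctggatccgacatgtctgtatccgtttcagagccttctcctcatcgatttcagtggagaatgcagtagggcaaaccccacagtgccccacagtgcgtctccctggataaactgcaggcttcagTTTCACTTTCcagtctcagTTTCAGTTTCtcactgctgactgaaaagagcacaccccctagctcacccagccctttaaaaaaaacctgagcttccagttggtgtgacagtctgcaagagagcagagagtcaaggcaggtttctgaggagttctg
Irf1 (chr11:53769764-53770063, plus strand): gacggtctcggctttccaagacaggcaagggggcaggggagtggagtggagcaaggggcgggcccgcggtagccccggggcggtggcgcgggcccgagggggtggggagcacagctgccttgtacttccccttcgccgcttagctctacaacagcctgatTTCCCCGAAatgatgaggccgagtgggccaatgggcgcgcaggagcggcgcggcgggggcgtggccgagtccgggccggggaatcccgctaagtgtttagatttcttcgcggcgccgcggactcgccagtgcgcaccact
In the Isg15 window 3 overlapping ISRE cores began 78, 72 and 66 bases before the start. The Oas1a window had 2 cores at 20 and 14 bases and a GAS at 98 bases before the start. Cores of the Bst2 window began at 130 and 124 bases and its GAS at 136 bases. Ifit1 had 2 cores on the reverse strand at 104 and 85 bases, and Irf1 had no ISRE core and a GAS at 90 bases.

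The lists of day 4 were much shorter than the others, which bears on every count. On chromosomes 1 to 19 and X, 19499 to 22250 peaks were listed on day 4, 47513 to 50835 on day 8 and 46492 to 51671 on day 21. The lists hold no read totals. The smallest local background of a list, which follows its depth, was 2.62 to 3.38 tags on day 4, 2.14 to 2.63 on day 8 and 2.33 to 3.08 on day 21, and a peak needed at least 8 to 11 tags at its summit. Same-day lists differed from each other by less than sampling noise (chi-square per region of 0.417 to 0.444 over 9 pairs, against 0.965 to 1.19 over 27 pairs of different days). Nothing in the labels ties the libraries to separate animals, so the p-values measure the spread between these lists, which may be technical. All 8 CD8 T cell marker genes had regions on every day. In a list these numbered 16 to 24 on day 4, 51 to 55 on day 8 and 50 to 58 on day 21. Regions at 6 B cell marker genes numbered 0 to 1 on day 4, 11 to 12 on day 8 and 10 to 14 on day 21, with Ms4a1 at 0 in every list. At 8 myeloid and dendritic cell genes the numbers were 4 in every list, 17 to 22 and 20 to 22, with Lyz2 at 0 in every list. Those at 5 stromal and endothelial genes were 2 to 4, 19 to 24 and 19 to 21. The share of all regions that was called rose as well, with means of 30.3%, 74.5% and 73.9%. With the day 4 lists shorter, the rise of these counts is no result about such cells, and their part in the results was not tested. In bulk libraries a larger share of cells with an open region and a more open region per cell cannot be told apart.

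More regions of the interferon response genes were called on the later days, and their share was close to that over all regions. The 3 lists of day 4 had 50, 48 and 56 of the 148 regions, those of day 8 had 108, 112 and 125, and those of day 21 had 109, 104 and 123. Every later list thus exceeded every day 4 list, and days 8 and 21 overlapped. As shares, the members had 34.7% ± 2.80 (SD, n = 3) on day 4, 77.7% ± 6.01 on day 8 and 75.7% ± 6.65 on day 21, against 30.3% ± 2.31, 74.5% ± 2.97 and 73.9% ± 4.92 of all regions. Of the member regions 44 (29.7%) were called in all 9 lists, against 24.0% of all regions. No region was called on day 4 and in no later list.

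A region was called gained when all 3 lists of the later day and none of the earlier day had it, and lost in the reverse case. On day 8 against day 4, 37 of 148 member regions (25.0%) were gained, against a background of 25.7% of all regions, and 0 were lost, against 0.00953%. Equal numbers came out on day 21 against day 4, with 37 gained (background 25.3%) and 0 lost (0.00794%). Both shares of gained regions were at the background and are thus no result about these genes. In all, 29 regions were called in no list of day 4 and in every list of days 8 and 21. They lay at 19 genes: 6 at Irf2, 3 at Irf1, and 1 or 2 at each of the others. The share of all regions with this pattern was not taken, so this number too is no result about these genes.

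Cutting every list to its 19499 strongest peaks by p, as many as the shortest list has, left few gained regions. The member regions called were then 48, 48 and 50 on day 4, 54, 52 and 50 on day 8 and 54, 55 and 54 on day 21. As shares these were 32.4% to 33.8%, 33.8% to 36.5% and 36.5% to 37.2% of member regions, against 28.6% to 29.3%, 30.7% and 30.6% to 30.8% of all regions. On day 8 against day 4, 0 were gained (background 1.37%) and 0 lost (0.631%). Day 21 against day 4 had 3 gained, at Irf1, Irf7 and Ifit2 (2.03%, background 1.42%), and 0 were lost (0.591%).

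Counted per gene, 21 of 35 members (60.0%) had more regions in every day 8 list than in any day 4 list, against 54.4% of 16227 genes with a region, and 0 had fewer (0.00616%). Day 21 against day 4 again gave 21, against 51.7%, and 0 with fewer (0). On the equally long lists it was 0 for day 8 against day 4 (3.8%, with 0 genes lower, 1.49%) and 2 for day 21 against day 4, Irf7 and Ifit2 (3.52%, with 0 lower, 1.58%). Irf2, which antagonises IRF1 at shared sites, had the most regions: 4, 5 and 5 of its 23 on day 4, 13, 18 and 17 on day 8, and 15, 16 and 20 on day 21. Oas2, an oligoadenylate synthetase that activates RNA decay, had none of its 4 regions in the day 4 lists, 3, 3 and 4 in the day 8 lists, and 2, 1 and 3 in the day 21 lists. Irf9, Mx1, Mx2 and Xaf1 had 1 region in every list, Parp9 had 2 and Dtx3l 4. Member genes with no region numbered 5, 6 and 4 in the full lists of day 4, 1 in each list of day 8 and 0 in each list of day 21. The share of all genes without a region was not taken and the day 4 lists were shorter, so this is no result about the members.

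**Figure D1:**
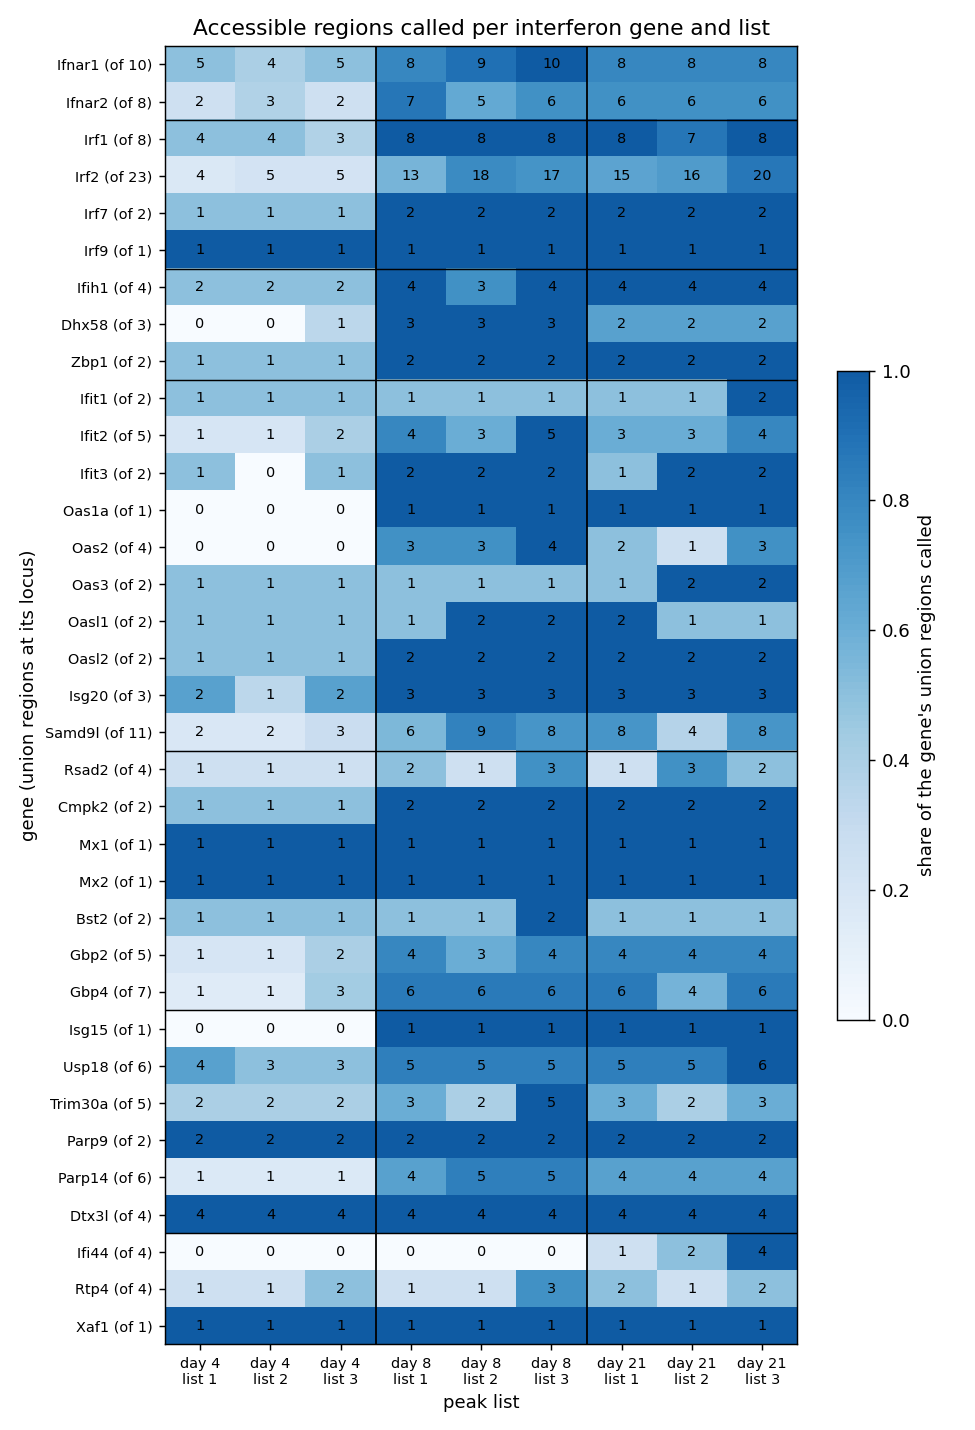
Number of regions called at each of the 35 interferon response genes (rows, with the gene's regions in all lists merged) in each of the 9 lists (columns, by day after transfer). Colour gives the share of the gene's regions that was called, and lines part the roles: receptor, regulatory factors, sensors, RNA effectors, other antiviral effectors, protein modifiers and other responders. Most rows darken between day 4 and day 8, while Irf9, Mx1, Mx2, Parp9, Dtx3l and Xaf1 are full in every list.

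**Figure D2:**
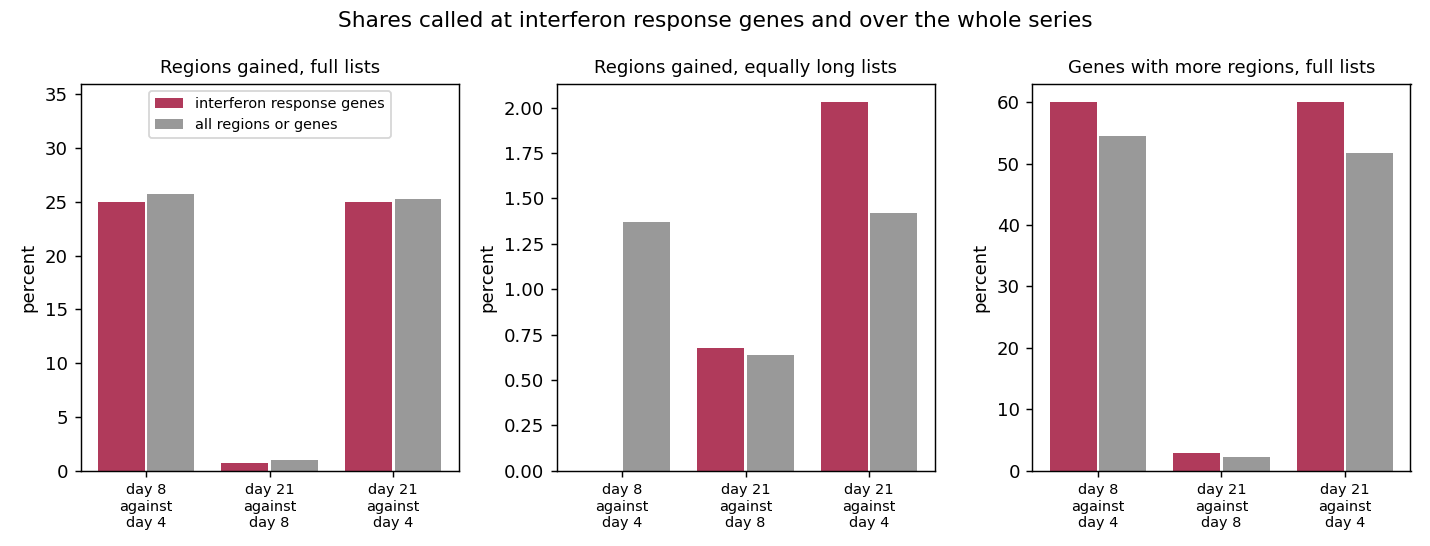
Percentage of regions gained in full lists (left), of regions gained in equally long lists (middle) and of genes whose later lists all have more regions than any earlier list (right), for interferon response genes (red) and for all regions or genes (grey); bars are shares of 148 and 62963 regions or of 35 and 16227 genes, without error bars. In the full lists red and grey bars are close (25.0% and 25.7% gained on day 8 against day 4), and no interferon gene region was gained on day 8 in the equally long lists.

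Between days 8 and 21 few regions came or went. On day 21 against day 8, 1 region was gained (0.676%, background 1.02%) and 1 was lost (0.676%, background 1.09%). The gained region lay in the body of Ifi44, a gene induced by interferon (chr3:151748591-151748983, 0.927 kb from a gene end), and was called in no list of days 4 and 8. Its fold enrichment over the local background was 4.40, 4.71 and 3.62 on day 21, with 16, 15 and 16 tags at the summit, close to the fewest tags a peak needed. The lost region lay in Dhx58, which encodes LGP2, a helicase that regulates RNA sensing (chr11:100694975-100695267). It had folds of 4.31, 4.11 and 4.29 and 17, 18 and 19 tags on day 8 and was listed neither on day 21 nor on day 4. Neither region was among the strongest 19499 peaks of any list, and on the equally long lists 0 member regions were lost (0.532%). Ifi44 and Dhx58 were also the members with more (2.16% of all genes) and with fewer regions (2.82%) in every day 21 list than in any day 8 list. The equally long lists had 0 members of either kind (1.78% and 2.01% of all genes).

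Most promoter windows of the members were called on each day. A peak overlapped the window in all 3 lists at 16 of 25 genes (64.0%) on day 4, 22 (88.0%) on day 8 and 22 (88.0%) on day 21, against 41.2%, 51.8% and 51.1% of 17274 genes. On the equally long lists the numbers were 16, 18 and 17, against 40.8%, 42.3% and 41.1% of all genes. Gained windows on day 8 against day 4 numbered 2, Isg15 and Oas1a (8.00%, background 5.24%), and the same 2 were gained on day 21 against day 4 (background 4.52%). None was gained (0.0347%) or lost (0.197%) on day 21 against day 8. The equally long lists had 1 gained window on day 8 against day 4, that of Ifnar2 (background 0.596%), and 0 lost (0.284%). They had 0 gained and 0 lost on day 21 against day 8 (0.104% and 0.313%) and likewise on day 21 against day 4 (0.486% and 0.434%).

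Isg15, a ubiquitin-like protein that is coupled to other proteins, had no peak at its promoter in any day 4 list. Its region (chr4:156200700-156201013) had folds of 4.03, 4.17 and 3.72 on day 8 and 3.48, 3.93 and 3.33 on day 21. The summits held 48, 54 and 49 tags on day 8 and 38, 44 and 44 on day 21, and all 3 ISRE cores printed above lay inside the peak in each of these 6 lists. Oas1a, an oligoadenylate synthetase, likewise had none on day 4. Its region (chr5:120906926-120907840) had folds of 5.90, 6.72 and 5.68 on day 8 and 4.57, 4.10 and 3.35 on day 21, with 22, 26 and 24 and then 16, 14 and 15 tags. The 2 cores of Oas1a lay inside the peak in 3 lists of day 8 and in 2 of day 21. For both genes the day 21 tags were below all day 8 tags, and neither region was among the strongest 19499 peaks of any list, and absence from a day 4 list means a signal under the peak threshold, not closed chromatin.

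Other windows were in between. Gbp2, a guanylate-binding GTPase, and Ifit3, a partner of IFIT1, were called in 1 list of day 4 and in 3 lists of each later day, as was Ifnar2. Oasl2 was called in 2 lists and then in 3 and 3. The windows of Oas3, in 0, 0 and 2 lists, and of Ifi44, in 0, 0 and 1, were seldom called at all. Of the 11 genes with an ISRE core, 6 were called in all 3 lists of day 4, 10 of day 8 and 10 of day 21; of the 14 without, 10, 12 and 12. Over all genes the shares were 37.3%, 47.9% and 47.5% of those with a core and 41.4%, 52.0% and 51.2% of those without. On the equally long lists the 11 member genes gave 6 on each day, and the 14 gave 10, 12 and 11. The 18 ISRE cores of the members lay wholly inside a peak in all 3 lists at 9 sites on day 4, 17 on day 8 and 15 on day 21. Overlapping cores of a window were counted singly there, and by gene the numbers were 6, 10 and 9 of 11. These come from the full lists. No share over the cores of all genes and no count on the equally long lists was taken, so they are no result about these cores.

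**Figure D3:**
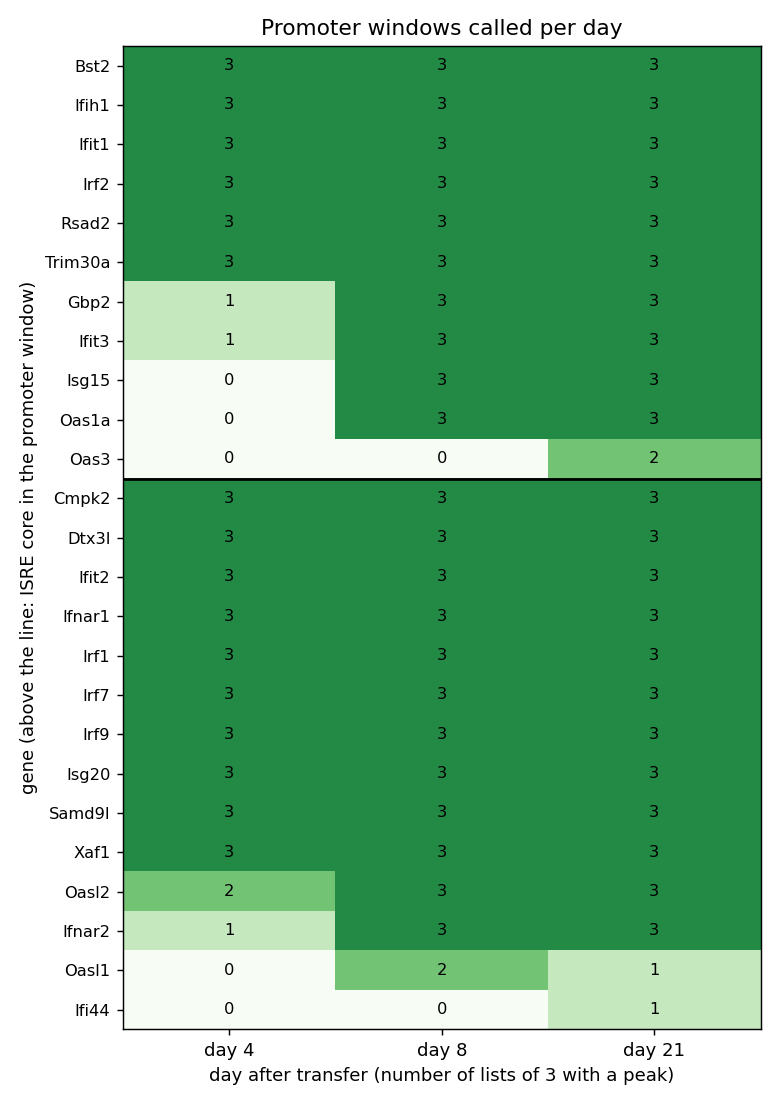
Number of lists out of 3 (colour and digit) in which a peak overlapped the promoter window, for the 25 interferon response genes with a window (rows) on days 4, 8 and 21 after transfer (columns). Genes above the line have an ISRE core in the window. Isg15 and Oas1a are at 0 on day 4 and at 3 on both later days.

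To compare strength between lists of unequal length, the 15109 regions called in all 9 lists were ranked within each list by fold enrichment, from percentile 0 (weakest) to 100 (strongest). A region was called higher or lower when limma gave an adjusted p under 0.05 and the mean percentile differed by at least 10 points. On day 8 against day 4, 8 of the 44 member regions were higher (18.2%, background 12.3%) and 5 were lower (11.4%, background 14.9%). Against day 4, day 21 had 8 higher (18.2%, background 13.9%) and 7 lower (15.9%, background 16.6%). The median difference of the members was -0.67 and -0.99 points in these comparisons, against -1.06 and -1.26 over all regions. The medians of the members were thus near those of all regions, while single regions moved up or down by as much as 52.5 points. A percentile is relative: a region whose fold was the same on a later day dropped in rank where other regions were stronger. Folds were not put on a common scale between lists. A Dtx3l region (chr16:35918381-35919545) at percentile 50.5 in day 4 list 3 had a fold of 5.71. In day 8 list 1 that region was at percentile 53.2 with a fold of 9.21. A higher fold on a later day thus does not by itself mean a more open region.

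**Figure D4:**
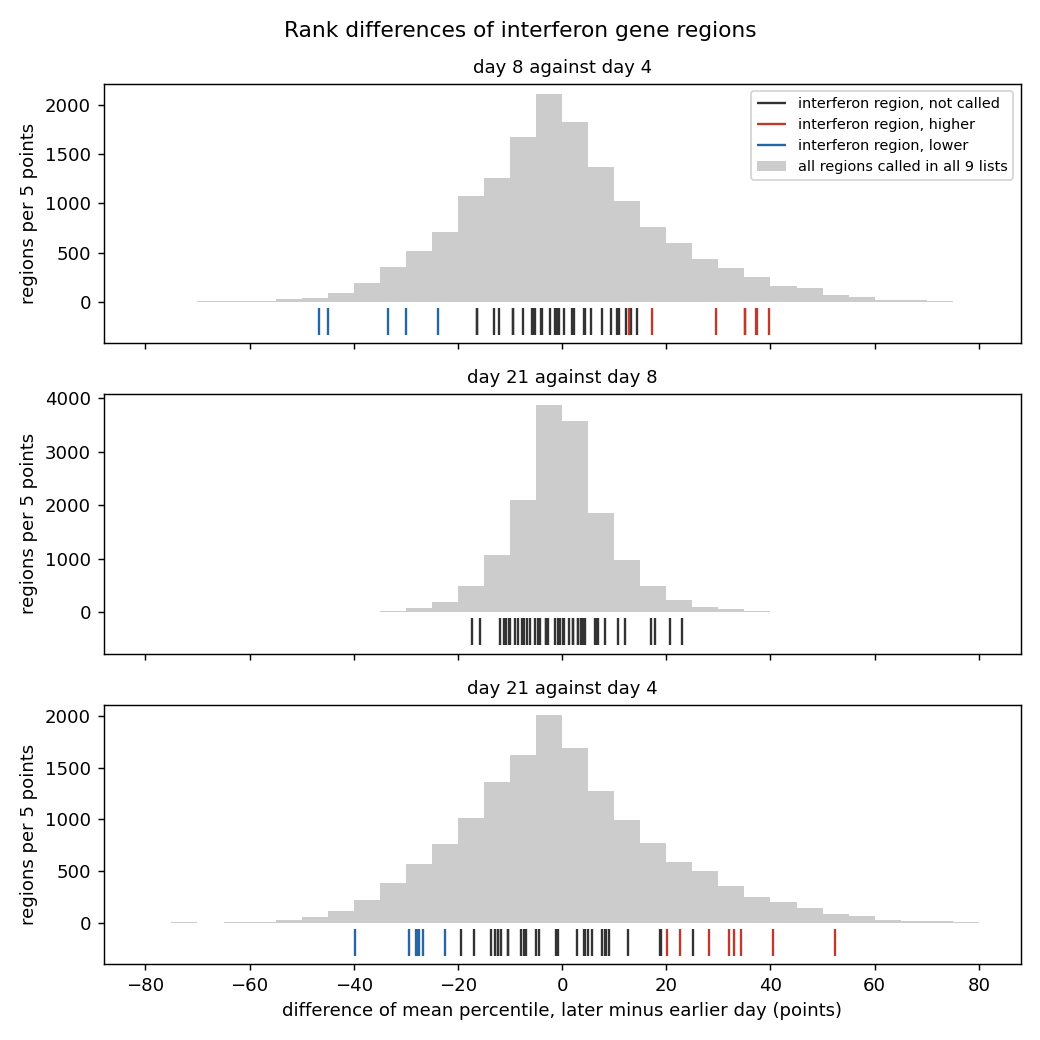
Difference of mean percentile (later minus earlier day, in points) of the 15109 regions called in all 9 lists (grey, regions per 5 points) and of the 44 regions of interferon response genes (ticks; red called higher, blue called lower, black not called), in 3 comparisons. The ticks spread over much of the grey distribution on day 8 and on day 21 against day 4, and none is called on day 21 against day 8.

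The 2 receptor genes, both on chromosome 16, held regions that moved in opposite directions. At Ifnar1, a region 19.7 kb from the gene (chr16:91464265-91465291) had percentiles of 84.7, 68.8 and 70.6 on day 4, 35, 26.2 and 23.1 on day 8, and 36.2, 38.5 and 30.2 on day 21. Both later days lay below day 4 without overlap. The difference was -46.6 ± 7.15 points (SE) on day 8 (limma, adjusted p = 0.00105) and -39.8 ± 7.15 on day 21 (limma, adjusted p = 0.00189). Its fold hardly differed, with 7.98, 7.33 and 7.02 on day 8 and 7.89, 6.71 and 6.73 on day 4. Ranked by −log10 q in place of fold, the day 21 difference was -15.9 points and no longer called (limma, adjusted p = 0.0642).

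The Ifnar1 promoter region (chr16:91484545-91485721) fell as well, with 79.96, 75.0 and 77.4 on day 4, 54.0, 52.1 and 54.6 on day 8, and 38.4, 59.7 and 66.6 on day 21. That is -23.9 ± 7.51 points on day 8 (limma, adjusted p = 0.0326) and -22.6 ± 7.51 on day 21 (adjusted p = 0.0375). Its fold was higher, with 9.27, 9.12 and 9.23 on day 8 against 7.48, 7.12 and 7.14 on day 4. By −log10 q the differences were -6.39 and -9.30 points and not called. The day 8 call also ended without any 1 of the 6 lists of days 4 and 8 (adjusted p of 0.0518 to 0.0856), and the day 21 call without any 1 of 7 lists (adjusted p of 0.0507 to 0.143): those of day 4, day 8 lists 2 and 3, and day 21 lists 1 and 2. Ranked Ifnar1 regions 8.80 and 26.25 kb away were not called. The nearer had means of 58.8, 73.1 and 77.5 on days 4, 8 and 21, and the farther 19.2, 18.7 and 11.3.

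The called regions of Ifnar2 went the other way. A region 5.33 kb from the gene (chr16:91366446-91367450) had 83.8, 71.2 and 73.8 on day 4, 94.4, 91.2 and 94.8 on day 8, and 94.7, 96.6 and 98.1 on day 21. Every later list stood above every day 4 list. It rose by 17.2 ± 3.51 points on day 8 (limma, adjusted p = 0.00442) and 20.2 ± 3.51 on day 21 (adjusted p = 0.00164). Both calls stayed under every alternative that could test the region, except that the day 8 rise was below a size minimum of 20 points. The Ifnar2 promoter region (chr16:91372487-91373440) was near the bottom throughout, with 3.78, 5.91 and 1.60 on day 4, 12.2, 25.7 and 11.99 on day 8, and 6.60, 14.7 and 3.31 on day 21. Its rise of 12.9 ± 4.28 points on day 8 (limma, adjusted p = 0.0408) was not called by −log10 q (adjusted p = 0.0986) or without limma's trend and robust settings (adjusted p = 0.0844). It also ended without day 8 list 2 (8.35 points, adjusted p = 0.151), day 4 list 1 or 3, or day 21 list 1 or 3 (adjusted p of 0.0515 to 0.0909).

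Among the regulatory factors the promoter regions of Irf1 and Irf2 fell in rank while a region away from each gene rose. Irf1, a factor that is itself induced through GAS, had at its promoter (chr11:53769381-53770852) percentiles of 40.6, 82.7 and 58.0 on day 4, 28.7, 27.9 and 24.4 on day 8, and 31.1, 30.8 and 31.2 on day 21. The day 4 lists spread widely but all stood above the later ones. The difference was -33.4 ± 9.12 points on day 8 (limma, adjusted p = 0.0174) and -29.4 ± 9.12 on day 21 (adjusted p = 0.0277). The folds of the promoter region overlapped, with 7.51, 7.45 and 7.16 on day 8 and 5.34, 7.70 and 6.07 on day 4. By −log10 q neither difference was called (-16.2 and -16.5 points, adjusted p of 0.153 and 0.138). The day 8 call ended without day 8 list 3 (adjusted p = 0.0613), and the day 21 call without day 4 list 2 (-18.3 points, adjusted p = 0.0688) or any 1 list of day 21 (adjusted p of 0.0685 to 0.0736). Irf1 has a second promoter window, not printed above, inside the same region (chr11:53770223-53770522). A peak overlapped that window in 0, 3 and 3 lists of days 4, 8 and 21, and in 0, 2 and 2 of the equally long lists. The fall in rank of the whole region thus does not describe this window.

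Away from the gene, 1 Irf1 region rose in rank and another was listed on the later days only. A region 15.7 kb from its end (chr11:53794099-53795552) had means of 45.1 ± 9.95 (SD, n = 3), 55.6 ± 5.01 and 67.6 ± 8.10 on days 4, 8 and 21, and was higher by 22.6 ± 7.44 points (SE) on day 21 than on day 4 (limma, adjusted p = 0.0359). That call ended without day 4 list 2 or 3 or day 21 list 1 or 2 (adjusted p of 0.0814 to 0.126). A region 24.7 kb from the end (chr11:53803034-53803810) was in no day 4 list. It had folds of 5.46, 6.02 and 5.86 with 25, 32 and 31 tags on day 8, and of 7.34, 7.48 and 7.04 with 37, 37 and 46 tags on day 21. Folds and tags of day 21 were above those of day 8 in every list, and on the equally long lists it was the 1 member region gained on day 21 against day 8 (0.676%, background 0.638%).

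Irf2 showed the same split. Its promoter region (chr8:46739160-46740389) had 54.8, 65.2 and 52.5 on day 4, 48.8, 33.9 and 40.8 on day 8, and 38.8, 28.5 and 22.7 on day 21. It was lower by 27.5 points on day 21 than on day 4 (-27.5 ± 7.37, limma, adjusted p = 0.0142), a call that ended by −log10 q (adjusted p = 0.134) and without day 21 list 3 (adjusted p = 0.0644). Its fold was higher, with 8.07, 7.41 and 6.82 on day 21 against 5.98, 6.50 and 5.81 on day 4. A region 21.8 kb from the gene (chr8:46869244-46870142) had 43.1, 42.9 and 63.1 on day 4, 88.9, 90.7 and 81.9 on day 8, and 89.2, 86.0 and 95.2 on day 21. No later list came near a day 4 list. It rose by 37.5 ± 6.31 points on day 8 (limma, adjusted p = 0.00171) and by 40.5 ± 6.31 on day 21 (adjusted p = 0.000963), under every alternative.

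Irf7, the factor that amplifies interferon production, and Irf9, the DNA-binding part of the complex at the ISRE, had no called rank difference. The Irf7 promoter region (chr7:141265505-141266647) had means of 22.8 ± 7.48, 10.7 ± 2.497 and 28.5 ± 5.48 (SD, n = 3) on days 4, 8 and 21. A second region in the Irf7 body (chr7:141264828-141265413) was in no day 4 list and had 55, 52 and 63 summit tags on day 8 and 51, 55 and 64 on day 21. On the equally long lists it was in 0, 2 and 3 lists. The only Irf9 region (chr14:55603542-55604658) had means of 67.0 ± 9.30, 65.8 ± 6.14 and 50.1 ± 0.40, and its difference on day 21 against day 4 was -16.9 ± 6.83 points (SE; limma, adjusted p = 0.0764).

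**Figure D5:**
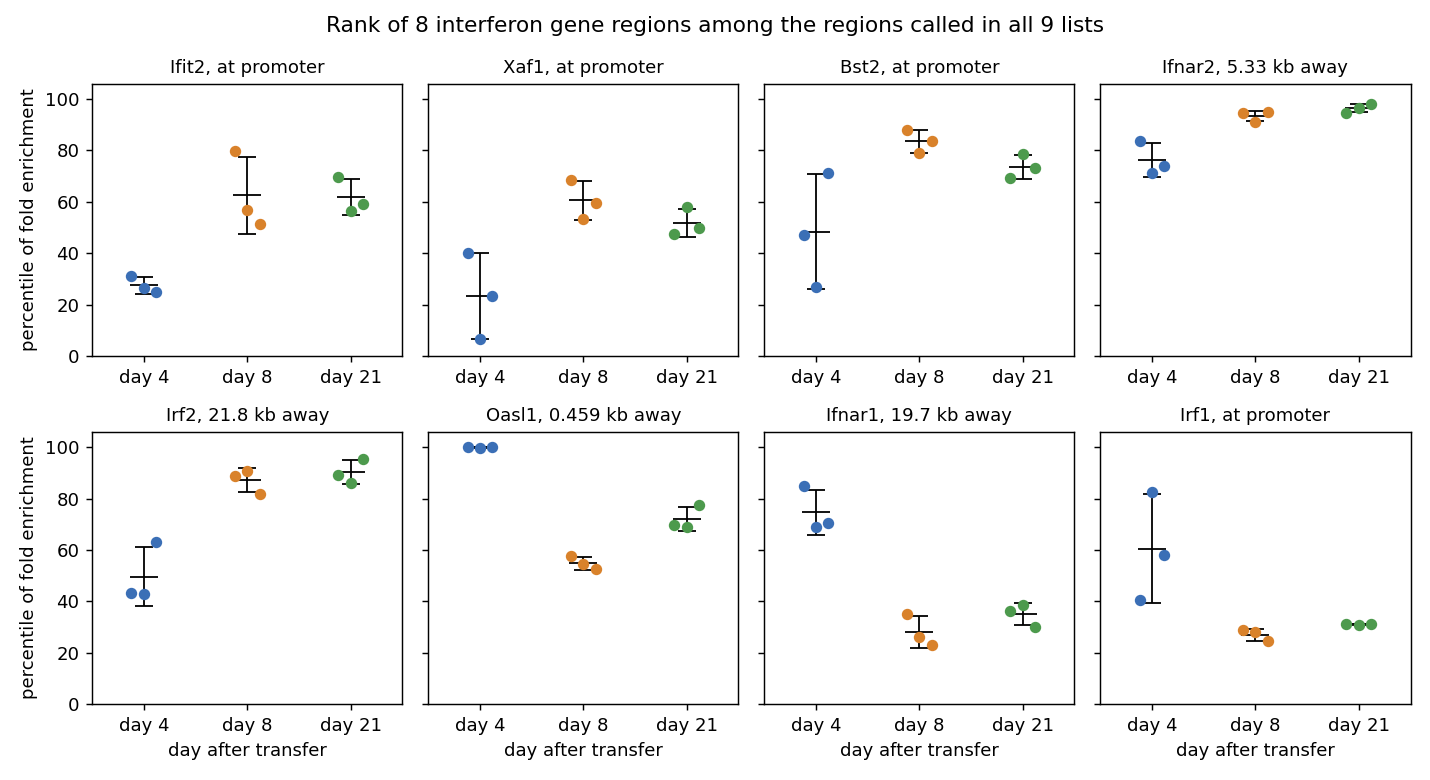
Percentile of fold enrichment (0 to 100, among the 15109 regions called in all 9 lists) of 8 regions of interferon response genes on days 4, 8 and 21 after transfer. Points are lists, and bars give the mean and SD of 3 lists. Regions at Ifit2, Xaf1, Bst2, Ifnar2 and Irf2 rank higher on day 8 than on day 4, and regions at Oasl1, Ifnar1 and Irf1 rank lower.

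Of the sensors, Ifih1 encodes MDA5, which detects long double-stranded RNA. Its promoter region (chr2:62645540-62646580) had 85.9, 85.5 and 70.8 on day 4, 70.5, 79.8 and 63.6 on day 8, and 52.3, 51.0 and 58.6 on day 21. Days 4 and 8 overlapped, and day 21 stood below both. The difference on day 21 against day 4 was -26.8 ± 6.69 points (limma, adjusted p = 0.01), but -5.32 points by −log10 q (adjusted p = 0.55). Its fold was higher on day 21, with 8.97, 8.93 and 9.18 against 7.99, 7.97 and 6.74 on day 4. A region 8.30 kb from the gene (chr2:62654550-62655052) rose, with 48.1, 38.3 and 34.2 on day 4, 78.8, 87.3 and 73.6 on day 8, and 60.7, 85.5 and 70.4 on day 21. It was higher by 39.7 ± 7.65 points on day 8 (limma, adjusted p = 0.00335) and by 32.0 ± 7.65 on day 21 (adjusted p = 0.00807). By −log10 q these were 11.01 and 15.51 points and not called. Zbp1, a sensor of Z-form nucleic acid, had 1 region in every day 4 list and 2 in every later list, and Dhx58 had 0, 0 and 1, then 3 in each day 8 list and 2 in each day 21 list.

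Among the RNA effectors, Ifit2 and Oasl1 moved in opposite directions. Ifit2, which binds viral RNA, had at its promoter (chr19:34550319-34551222) percentiles of 31.3, 26.5 and 24.9 on day 4, 79.7, 56.7 and 51.5 on day 8, and 69.7, 56.6 and 59.2 on day 21. All later lists were above all day 4 lists, with folds of 11.3, 9.45 and 9.03 on day 8 against 4.94, 4.76 and 4.64 on day 4. The rise of 35.1 ± 8.16 points on day 8 (limma, adjusted p = 0.0081) and of 34.3 ± 8.16 on day 21 (adjusted p = 0.00788) was called under every alternative. A second region in the Ifit2 body (chr19:34570001-34570596) was in 1 day 4 list with 16 tags, and had 32, 35 and 29 tags on day 8 and 34, 36 and 52 on day 21.

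Oasl1 encodes a protein related to the OAS enzymes that in mice represses the translation of Irf7. The region 0.459 kb before the Oasl1 start (chr5:114921658-114922684) was among the strongest ranked regions on day 4, with percentiles of 99.9, 99.8 and 99.8. It had 57.5, 54.6 and 52.5 on day 8 and 69.6, 68.8 and 77.3 on day 21. Here the fold itself was lower, with 9.52, 9.30 and 9.10 on day 8 and 10.2, 10.2 and 10.5 on day 21, against 15.5, 13.7 and 13.9 on day 4. The summit tags overlapped, with 97, 100 and 102 on day 8 and 105, 103 and 131 on day 21, against 119, 99 and 120 on day 4. In rank the difference was -45.0 ± 4.94 points on day 8 (limma, adjusted p = 0.000279), called under every alternative, and -27.97 ± 4.94 on day 21 (adjusted p = 0.00172), which was -8.09 points by −log10 q and so under the size minimum. The region does not reach the Oasl1 promoter window, where a separate peak with 28 to 32 tags was in 0, 2 and 1 lists.

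Samd9l, which restrains translation and cell growth, had a region 25.9 kb from the gene (chr6:3345895-3346354) at means of 55.9 ± 7.81, 26.0 ± 15.1 and 28.02 ± 0.81 (SD, n = 3) on days 4, 8 and 21. The difference was -29.9 ± 8.05 points (SE) on day 8 (limma, adjusted p = 0.0164) and -27.9 ± 8.05 on day 21 (adjusted p = 0.0203). Its folds were 8.39, 5.90 and 7.31 on day 8 and 7.42, 7.36 and 7.17 on day 21, against 5.68, 6.01 and 6.37 on day 4. The day 8 call ended without day 8 list 2 (-22.2 points, adjusted p = 0.0785) or list 3 (adjusted p = 0.0503), and the day 21 call without day 4 list 3 or any 1 of the day 21 lists, or by −log10 q (-12.4 points), or when peaks had to cover 50% of a region (-17.8 points, adjusted p = 0.0568). The ranked promoter regions of Ifit1, Oasl2, Isg20 and Samd9l and the region in the Oas3 body, 1.49 kb from a gene end, were not called in any comparison.

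Bst2 encodes tetherin, a membrane protein that holds budding virus at the cell surface. Its promoter region (chr8:71537076-71537850) had 47.1, 27.0 and 71.3 on day 4, 87.9, 79.0 and 83.7 on day 8, and 69.3, 78.5 and 73.1 on day 21. Day 8 was above day 4 in every list, and day 21 overlapped day 4. The rise on day 8 was 35.04 ± 9.19 points (limma, adjusted p = 0.0145) and ended without day 8 list 1 (32.9 points, adjusted p = 0.0525), and on day 21 the difference was 25.1 ± 9.19 (adjusted p = 0.0541). Both ISRE cores printed above lay inside its peak in all 9 lists. The other ranked regions of this group, at Rsad2, Cmpk2, Mx1, Mx2, Gbp2 and Gbp4, were not called. The RefSeq table used lists Mx1 and Mx2 as transcribed pseudogenes, and C57BL/6 mice are known to lack functional copies.

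Of the protein modifiers, only Dtx3l, a ubiquitin ligase that works with PARP9, had a called difference. A region 20.7 kb from its end (chr16:35905167-35905817) had 3.02, 17.7 and 39.9 on day 4, 51.0, 39.3 and 58.8 on day 8, and 67.5, 76.2 and 74.3 on day 21. Day 21 was above every other list. The difference was 52.5 ± 9.24 points on day 21 against day 4 (limma, adjusted p = 0.00174), the largest among the members, and 29.5 ± 9.24 on day 8 (adjusted p = 0.0323). By −log10 q they were 21.5 points (adjusted p = 0.0501) and 12.6 points (adjusted p = 0.258), and the day 8 call also ended without day 4 list 1 or 2 or day 8 list 1 or 3. The promoters of Trim30a and of Usp18, which removes ISG15 from proteins, were not called, nor was any region of Parp9 or Parp14.

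The other responders with a ranked region both rose. Xaf1, a partner of the apoptosis inhibitor XIAP, had 1 region, at its promoter (chr11:72301216-72301996), with 40.1, 6.72 and 23.6 on day 4, 68.6, 53.5 and 59.8 on day 8, and 47.5, 57.9 and 49.7 on day 21. Every later list was above every day 4 list. It was higher by 37.2 ± 8.68 points on day 8 (limma, adjusted p = 0.00826), under every alternative, and by 28.2 ± 8.68 on day 21 (adjusted p = 0.0268), not called by −log10 q (adjusted p = 0.292) or without any 1 of 5 lists (adjusted p of 0.0506 to 0.089). Rtp4, a protein first known from receptor transport, had a region 3.96 kb inside its body (chr16:23609545-23610260) at means of 17.1 ± 12.6, 29.4 ± 12.5 and 50.1 ± 16.8 (SD, n = 3) on days 4, 8 and 21. It was higher by 33.0 ± 9.70 points (SE) on day 21 than on day 4 (limma, adjusted p = 0.022), a call that ended without day 4 list 2 or 3 or day 21 list 1 or 2 (adjusted p of 0.0611 to 0.0852).

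On day 21 against day 8, 0 of the 44 member regions were called higher (background 0.0132%) and 0 lower (background 0). By limma's unadjusted p, 5 (11.4%) were under 0.05, against 9.92% of all regions, and the differences ran from -17.3 to 23.0 points. The test found few differences in the whole table here, and a miss does not show that ranks were equal.

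A list of 70 other genes of interferon signalling and response, 69 of them matched to a protein-coding gene, had 315 regions, of which 82 were called in all 9 lists. On day 8 against day 4, 7 of the 82 were higher and 10 lower (background 12.3% and 14.9%), with a median difference of -2.78 points against -1.06 over all regions. Day 21 had 5 higher and 11 lower against day 4 (background 13.9% and 16.6%), and 0 and 0 against day 8 (0.0132% and 0). Gained regions made up 22.2% of the 315 on day 8 against day 4, against 25.7% of all regions. The promoter region of Ifngr1, a chain of the interferon gamma receptor, had 93.4, 84.4 and 87.3 on day 4, 44.7, 36.5 and 49.4 on day 8, and 29.0, 47.4 and 41.5 on day 21. The difference was -44.8 ± 7.15 points on day 8 (limma, adjusted p = 0.0013). The promoter region of Tyk2, the kinase of IFNAR1, differed by -30.9 ± 9.29 (adjusted p = 0.0272) and a Jak1 region 22.9 kb from a gene end by -38.7 ± 7.93 (adjusted p = 0.00449). A region 1.55 kb from an end of Gbp8 was higher by 50.4 ± 7.70 (adjusted p = 0.00106).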

How the data were processed

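Sample titles gave the groups and replicate numbers, since the genotype tag holds the time point and the reverse. The tools were MACS2, BWA 0.7.15, deepTools 2.0 and Picard on mm10, per the submitters' processing notes. Read filters, reads with several matching places (which touches paralogs such as the Oas genes), any Tn5 shift and peak settings were not stated there. For each library, the authors deposited 1 peak list, with a score, a fold enrichment ratio over local background, and −log10 p and −log10 q per peak. These are the authors' values and served to rank, filter or describe peaks within a list. Folds and summit tags of different days are also printed side by side, without a common scale and without a test. All peaks had q of 0.05 or less.

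The 353295 peaks on chromosomes 1 to 19 and X were merged, with 95.3% of regions assigned to a gene of the RefSeq table for GRCm38.p6 (21631 protein-coding genes). Coordinates are 1-based on mm10. Fold and −log10 p together gave whole summit tags for at least 99.995% of peaks of every list (tolerance 0.02). Percentiles were fitted with limma 3.58.1 (R 4.3.3; trend, robust) over all 9 lists with a term per day, with Benjamini-Hochberg adjustment over 15109 regions. In a check on simulated data (day 8 against day 4) it recovered 0 of 200 regions shifted by 20 points and 108 to 117 shifted by 40, with 2 to 6 false calls. Only those 200 of 15109 regions were moved, and the spreads were shuffled between regions. In the data 4196 regions had an adjusted p under 0.05 (limma) in this comparison, so the adjustment was less strict. The check therefore does not give the power of the reported test. Gained regions and regions per gene were given no test and are read against the share over all regions or genes. Other steps ran in numpy 2.4.6, pandas 2.3.3 and scipy 1.17.1 on Python 3.11.15, with plots from matplotlib 3.10.9. The members and gene lists were chosen with earlier results of these data known. Named with values were members with a called region within 1 kb of a gene end or a region gained on equally long lists, both receptor genes and the 4 regulatory factors; Isg15, Oas1a, Ifi44, Dhx58, Oas2, Dtx3l, Rtp4, Samd9l and the genes of the longer list were chosen after their values were seen.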

Additional observations from a re-analysis of the deposited data

How the results depend on the processing

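Of the 28 rank differences called at member regions, 9 were called under every alternative other than a size minimum of 20 points. Ranking peaks by −log10 q kept 13, and none was reversed. With that minimum the Ifnar2 region 5.33 kb from the gene, at 17.2 points, was no longer called on day 8. Here and for the single regions above, an alternative counted only where it could test the region. Leaving out a list gave 252 values, of which 204 kept the call and 48, over 13 differences, lost it. The count of higher regions on day 8 against day 4 was 8 and became 3 when peaks had to cover 50% of a region, which left 18 member regions to test (background 12.2%); the count of lower regions was 5 and became 3 by −log10 q (background 6.2%) and 3 with that cover (14.4%). On day 21 against day 4 the 8 higher became 3 of 18 with that cover (13.2%), and the 7 lower became 0 by −log10 q (6.8%) and 2 of 18 with it (15.7%). Leaving out a list gave 6 to 8 higher and 2 to 6 lower on day 8 (2 without day 8 list 3), and 5 to 9 higher and 4 to 7 lower on day 21. On equally long lists gained regions numbered 0 on day 8 and 3 on day 21 against day 4 (37 each in full lists), and genes with more regions 0 and 2 (21 each). Leaving out a list gave 38 to 44 and 37 to 45 gained regions and 21 to 23 and 21 to 24 genes. On day 21 against day 8, 1 gained region became 2 with that cover and 1 to 4 on leaving out a list, and 1 lost region became 0 on equally long lists, 2 with that cover and 1 to 4 on leaving out a list. Genes with more regions became 0 on equally long lists and 1 to 2 on leaving out a list, and genes with fewer 0 and 1 to 3. The cause of these changes was not tested, except that equal length itself removes the difference in list length and that the cover rule leaves fewer regions. Samples with the same replicate number did not deviate together (correlations of -0.0131 to 0.0266, against -0.023 to 0.027 between other numbers), and with the replicate number as a block all 28 differences were still called, with counts of 8 and 5, 0 and 0, and 8 and 7. Absence from a day 4 list means a signal under the peak threshold. The fewest summit tags of a peak were 10 to 11 there, against 8 to 9 on day 8 and 9 to 10 on day 21. The part of depth in this was not tested.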
